A study of Mus musculus with 12 samples.

Results

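The seminal vesicle secretory protein genes Svs2, Svs4, Svs5 and Svs6 of the mouse were followed across 12 ovary arrays. They were taken as every probe set whose platform annotation gives 1 of these 4 symbols, which found 6 probe sets among the 16376 in the table, 3 of them for Svs5 and 1 for each of the other genes. After 1 probe set was kept per gene, they made up 4 of 10949 genes. The genes were chosen by their measured levels, since Svs5 had already been seen to be far above controls in the tumor ovaries of these data, so their own levels and differences are described without a test, and only genes outside the group are tested.

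The 12 ovaries came from female mice of 23 weeks in diestrus, the luteal part of the estrous cycle. Of these, 3 ovaries of tumor stage II and 3 of tumor stage I came from Pgrcre/+PgrBLsL/+ mice, and 6 control ovaries without a tumor came from Pgrcre/+ mice. Pgr encodes the progesterone receptor. Pgrcre, in which the Pgr locus drives Cre recombinase, was thus carried by all 3 groups, and the PgrBLsL allele by both tumor groups. The series title names constitutive expression of progesterone receptor isoforms as the subject. No ovary had the allele without a tumor, so allele and tumor cannot be told apart wherever controls are the baseline. The labels call the arrays biological replicates and do not say whether an array held 1 ovary or a pool. An ovary therefore means here the sample of 1 array, and each SD is between arrays.

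Seminal vesicle secretory proteins are the main products of the seminal vesicle, a male accessory gland that makes much of the fluid of the ejaculate. Their genes lie side by side on mouse chromosome 2 and are known for very high, androgen-dependent expression in that gland. Svs2 encodes the main clotting protein of the copulatory plug, and transglutaminase cross-links it after mating. Svs4 encodes a small basic secreted protein, whose rat counterpart is known for anti-inflammatory activity, and Svs5 and Svs6 encode small secreted proteins of the same family.

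Along the chromosome the 6 Svs genes of the run follow the order Svs2, Svs3b, Svs4, Svs3a, Svs6, Svs5, by the RefSeq gene table of GRCm38.p6. The 250 bases before the annotated start of each member are shown because those of Svs5 and Svs6 are nearly the same sequence. The sequences are RefSeq's for GRCm38.p6, read 5′ to 3′ toward the start: chr2:164332515-164332764 (plus strand) for Svs5, chr2:164316501-164316750 (plus strand) for Svs6, chr2:164278308-164278557 (minus strand) for Svs4 and chr2:164238342-164238591 (minus strand) for Svs2. Capitals mark TATAAA, the core of a TATA box, and TGTTCT, the half-site that the progesterone and glucocorticoid receptors bind, each searched on both strands.
Svs5: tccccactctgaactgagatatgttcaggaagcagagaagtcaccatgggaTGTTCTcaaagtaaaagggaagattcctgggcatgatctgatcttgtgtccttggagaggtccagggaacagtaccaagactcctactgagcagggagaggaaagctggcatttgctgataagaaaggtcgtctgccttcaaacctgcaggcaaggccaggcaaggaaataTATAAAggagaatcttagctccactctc
Svs6: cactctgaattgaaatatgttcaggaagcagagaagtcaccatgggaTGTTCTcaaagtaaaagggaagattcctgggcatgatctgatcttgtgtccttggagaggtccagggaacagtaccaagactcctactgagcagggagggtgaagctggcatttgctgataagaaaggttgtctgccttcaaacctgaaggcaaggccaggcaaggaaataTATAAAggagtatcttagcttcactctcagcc
Svs4: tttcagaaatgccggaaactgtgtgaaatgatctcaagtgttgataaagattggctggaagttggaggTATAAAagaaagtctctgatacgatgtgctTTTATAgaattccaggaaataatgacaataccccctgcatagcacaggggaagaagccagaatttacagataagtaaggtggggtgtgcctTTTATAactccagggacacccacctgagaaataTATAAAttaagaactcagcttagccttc
Svs2: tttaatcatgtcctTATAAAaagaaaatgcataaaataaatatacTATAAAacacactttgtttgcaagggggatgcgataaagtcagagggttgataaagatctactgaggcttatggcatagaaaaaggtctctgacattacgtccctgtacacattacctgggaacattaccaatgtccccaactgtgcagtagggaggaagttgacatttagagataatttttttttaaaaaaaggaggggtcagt

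In a pairwise alignment with free ends, Svs5 and Svs6 shared 237 of 246 aligned bases (96.3%). Svs3a and Svs3b shared 244 of 250 (97.6%). A probe set of Svs3a and 1 annotated to both genes read near control levels in both stages, and Svs3b had no probe set of its own. Identity between the other pairs of members ran from 70.3% to 77.9% over 172 to 211 aligned bases. Gaps and unpaired ends were left out of these shares and no unrelated windows were aligned, so no likeness is read from these lower values. TGTTCT occurred 1 time in Svs5 and 1 time in Svs6, from 199 and 203 bases before the start, and 0 times in Svs4 and Svs2. Of 27025 mouse promoter windows of the same length, 16.17% held TGTTCT. Svs3a and Svs3b also held it, 34 bases before their starts. The full element, an inverted repeat of this half-site with a spacer of 3 bases, was found in 0 of these Svs windows and in 1 of the 27025. TATAAA lay 28 bases before the start in Svs5 and in Svs4 and 32 bases before it in Svs6, and 12.97% of all windows held it. Svs4 had 4 matches to TATAAA and Svs2 had 2, the nearer of them 205 bases away from the start. A match describes the letters only and is no measured binding site.

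Svs5 and Svs6 were far higher in every tumor ovary than in any control ovary, while Svs2 and Svs4 stayed near the bottom of the table's range on all 12 arrays. All values are the authors' deposited log2 values per probe set, and levels of different probe sets are not set against each other. The probe set kept for Svs5 (1427220_a_at) read 12.25, 12.53 and 13.28 in stage II, 12.74, 10.78 and 10.10 in stage I, and 5.11, 5.85, 6.08, 4.89, 6.47 and 6.14 in controls. The tumor and control ovaries were separated by a gap with no values between 6.47 and 10.10. Svs5 averaged 12.69 ± 0.53 (SD, n = 3) in stage II, 11.21 ± 1.37 (SD, n = 3) in stage I and 5.76 ± 0.62 (SD, n = 6) in controls. The difference from controls was 6.93 ± 0.51 (SE) on the log2 scale in stage II, a 122-fold difference, and 5.45 ± 0.51 (SE) in stage I, a 43.7-fold difference.

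The other Svs5 probe sets gave the same order of groups. Probe set 1419347_x_at, whose suffix marks probes that can also match other sequences, read 12.14, 12.38 and 13.20 in stage II, 12.62, 10.20 and 9.88 in stage I, and 4.38 to 6.13 (median 5.49) in controls. Probe set 1419346_a_at read 10.88, 11.18 and 12.19 in stage II, 11.44, 9.26 and 8.50 in stage I, and 4.02 to 5.20 (median 4.37) in controls. Over controls, these probe sets were 152-fold and 125-fold higher in stage II, and 47.7-fold and 39.1-fold higher in stage I. On all 3 Svs5 probe sets the highest array was stage II replicate 3, stage I replicate 1 came next, and the highest control was replicate 5. The 3 probe sets correlated with each other at r = 0.996 to 0.999 over the 12 arrays, and at r = 0.934 to 0.982 when each array was expressed as a deviation from its group mean.

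Svs6, with 1 probe set, read 9.25, 9.71 and 11.14 in stage II, 9.79, 6.69 and 6.56 in stage I, and 3.92, 4.43, 4.32, 4.26, 4.09 and 4.49 in controls. Here too all 6 tumor ovaries lay above all 6 controls, and stage I replicate 1 lay among the stage II ovaries. Svs6 averaged 10.03 ± 0.98 (SD, n = 3) in stage II, 7.68 ± 1.83 (SD, n = 3) in stage I and 4.25 ± 0.21 (SD, n = 6) in controls. The log2 difference from controls was 5.78 ± 0.60 (SE, 55.0-fold) in stage II and 3.43 ± 0.60 (SE, 10.8-fold) in stage I. Without stage I replicate 1 the stage I difference was 2.37. The SE comes from 1 spread shared by the 3 groups, and the SD within stage I was larger than that in controls for Svs5 and for Svs6, so the SE may be too small for stage I.

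Svs2 read 2.90, 2.98 and 2.86 in stage II, 2.83, 2.90 and 2.99 in stage I, and 2.90 to 3.22 (median 3.00) in controls. Svs4 read 3.06, 3.10 and 3.19 in stage II, 3.19, 3.22 and 2.91 in stage I, and 2.99 to 3.22 (median 3.10) in controls. The groups overlapped in both genes. The log2 difference from controls was -0.12 ± 0.08 (SE) in stage II and -0.13 ± 0.08 (SE) in stage I for Svs2, and 0.01 ± 0.08 (SE) in both stages for Svs4. The lowest value in the table was 2.69, and background was not measured, so a level below what these probe sets can read cannot be seen.

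**Figure D1:**
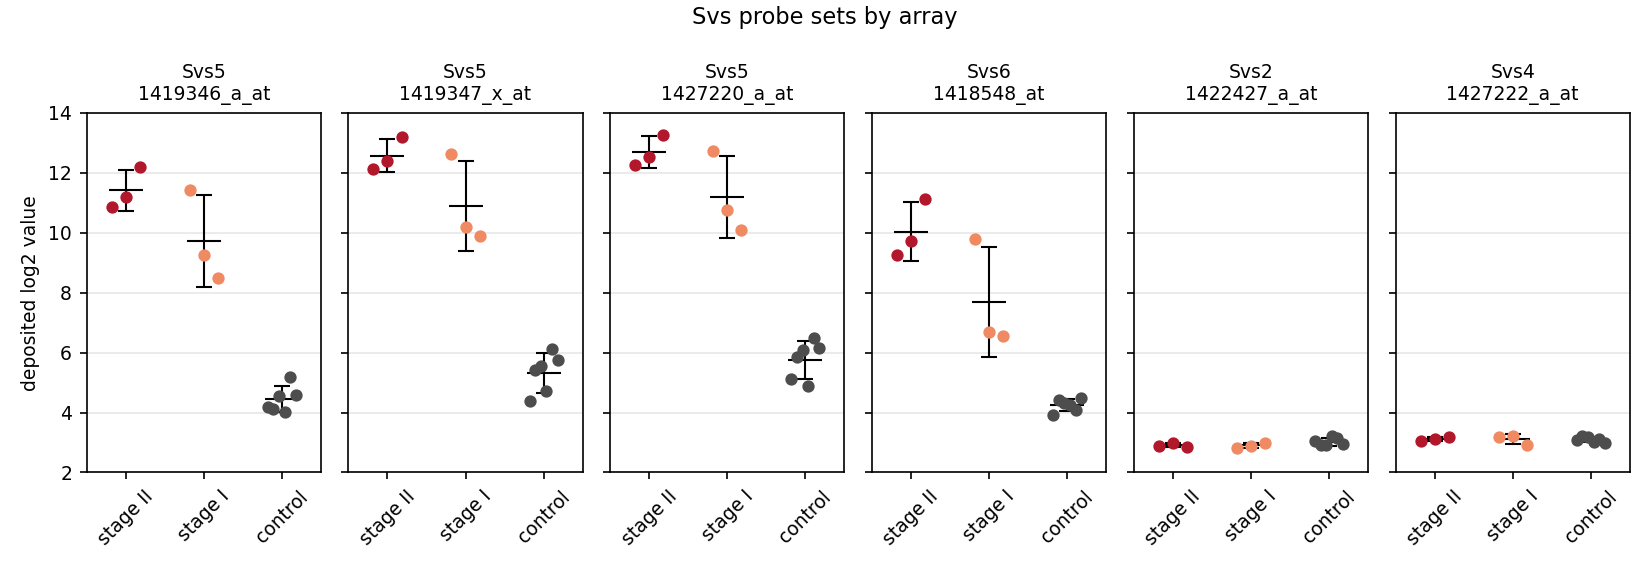
Deposited log2 value (vertical axis) of each Svs probe set on each array, by group (stage II, n = 3; stage I, n = 3; control, n = 6). Points are arrays in replicate order, the wide bar is the group mean and the whiskers are ± 1 SD. All tumor ovaries lie above all controls for the 3 Svs5 probe sets and for Svs6, while Svs2 and Svs4 stay between 2.83 and 3.22.

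By count, 2 of the 4 genes, Svs5 and Svs6, had all stage II arrays above all controls, where 9.97% of all 10949 genes did. The same 2 of 4 had all stage I arrays above all controls, where 2.23% of all genes did, and 0 of 4 had all stage I arrays below all controls, where 1.45% did. These counts follow from how the genes were picked and nothing is read from them. Both comparisons share the same 6 controls. Among all genes ordered from the highest difference down, Svs5 stood at place 5 and Svs6 at place 9 in stage II against control, and they stood at places 2 and 9 in stage I against control. Svs2 and Svs4 stood at places 7776 and 4843 in stage II and at places 9714 and 5092 in stage I.

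Between the tumor stages the members overlapped. Svs5 was 2.79-fold higher in stage II than in stage I (log2 1.48 ± 0.59 SE) and Svs6 was 5.11-fold higher (log2 2.35 ± 0.70 SE), but stage I replicate 1 exceeded 2 of the 3 stage II ovaries in both genes. In 0 of the 4 genes did all stage II arrays lie above or all below those of stage I, where 14.5% and 17.1% of all genes did. Without stage I replicate 1 the log2 difference was 2.25 for Svs5 and 3.41 for Svs6. Svs2 and Svs4 differed by 0.01 each between the stages. The order of mean levels was therefore stage II, stage I, control for Svs5 and Svs6, with neighbouring tumor stages that overlap and a control group that does not, and no order for Svs2 and Svs4.

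Svs5 and Svs6 varied together from ovary to ovary. Over the 12 arrays Svs6 had r = 0.966 with Svs5, a value that mostly reflects the separation of tumor ovaries from controls. After the group means were taken out r was 0.830, and it was 0.542 without stage I replicate 1. Svs2 and Svs4, whose ranges were 2.83 to 3.22 and 2.91 to 3.22, had r = -0.617 and r = 0.165 with Svs5 over the 12 arrays. The points share arrays and normalization, and whether probes of Svs6 also match transcripts of Svs5 was not checked here. Among the controls the orders of the 2 genes matched only in part, and no r was taken over controls alone. Control replicate 5 was highest in Svs5 but next to lowest in Svs6. Control replicate 6 was highest in Svs6 and next to highest in Svs5, and control replicate 1 was lowest in Svs6 and next to lowest in Svs5.

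**Figure D2:**
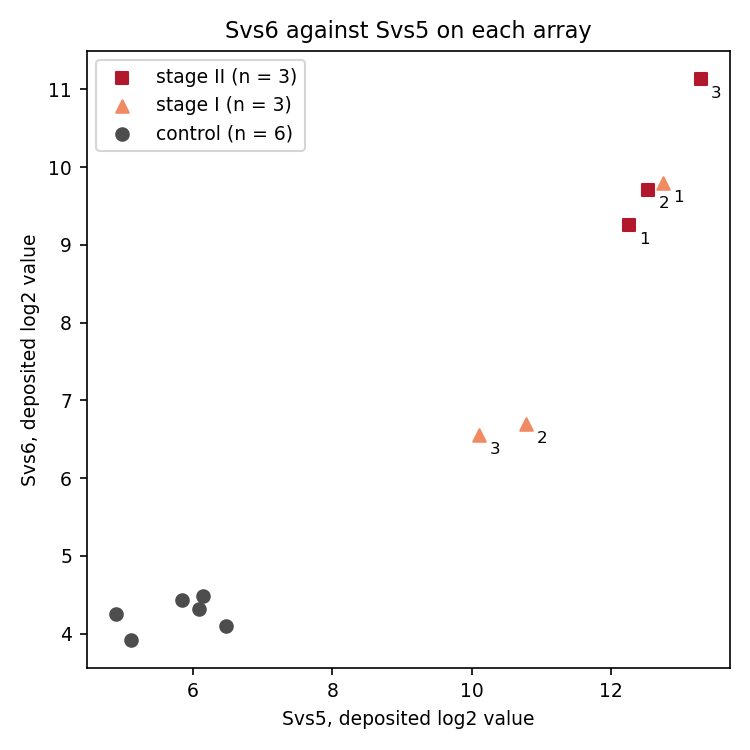
Deposited log2 value of Svs6 (vertical axis) against Svs5 (horizontal axis) on each array, with replicate numbers beside the tumor ovaries. Stage I replicate 1 (12.74 and 9.79) lies among the stage II ovaries, stage I replicates 2 and 3 lie between them and the controls, and the 6 controls stay below 6.48 for Svs5 and below 4.50 for Svs6.

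The other measured genes of the run lay near their control levels. Svs3a, which encodes another clotting protein of the plug and lies between Svs4 and Svs6, averaged 4.53 in stage II, 4.53 in stage I and 4.52 in controls (limma, adjusted p = 0.920 in stage II and 0.999 in stage I against control). A probe set annotated to both Svs3a and Svs3b averaged 3.18 in stage II, 3.12 in stage I and 3.11 in controls, and did not pass either. Of the 30 protein-coding genes nearest to the run, 15 on each side, 18 were measured. In stage II, 4 of these 18 rose and 0 fell at an adjusted p under 0.05 (22.2%), where 21.0% of all genes passed, 9.81% by rising and 11.2% by falling, with a median log2 difference of 0.03 against -0.01 over all genes. In stage I 0 of 18 passed, where 0.192% of all genes did. At an unadjusted p under 0.05 it was also 0 of 18, where 414 of all 10949 genes were higher and 284 lower.

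The nearest measured genes outside the run moved little. Wfdc15b, a whey acidic protein domain gene next to Svs2, had a log2 difference of 0.04 ± 0.29 (SE) in stage II and 0.17 ± 0.29 (SE) in stage I. Matn4, the matrix protein matrilin 4 on the side of Svs5, had 0.06 ± 0.06 (SE) and -0.01 ± 0.06 (SE), and Slpi, which lies between Svs5 and Matn4, was not analysed here. Ada, the purine enzyme adenosine deaminase, rose 2.13-fold in stage II (log2 1.09 ± 0.19 SE, limma adjusted p = 0.00201). The other increases were in Dbndd2 (1.29-fold, adjusted p = 0.0272), Serinc3 (1.16-fold, 0.0276) and Pkig, an inhibitor of protein kinase A (1.12-fold, 0.0320). With the mean of its probe sets Dbndd2 had a log2 difference of 0.18 (adjusted p = 0.129), against 0.37 for the probe set kept. It also did not pass with quantile normalization (0.0523) or with the replicate number as a block (0.156). Dbndd2 was no longer called when control replicate 3 or stage II replicate 1 was left out (highest adjusted p = 0.133). The same held for Serinc3 when control replicate 2 or 6, or replicate 1 or 3 of stage II, was dropped (highest 0.0943). Pkig was lost when control replicate 2, 3, 5 or 6, or replicate 1 or 3 of stage II, was dropped (highest 0.110). In stage II against stage I 1 of 18 passed, Ada (log2 0.81, adjusted p = 0.0334), where 12.5% of all genes did, 6.54% higher and 5.97% lower. Leaving out stage I replicate 1, stage I replicate 2 or any one stage II array removed this call (adjusted p as high as 0.125).

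**Figure D3:**
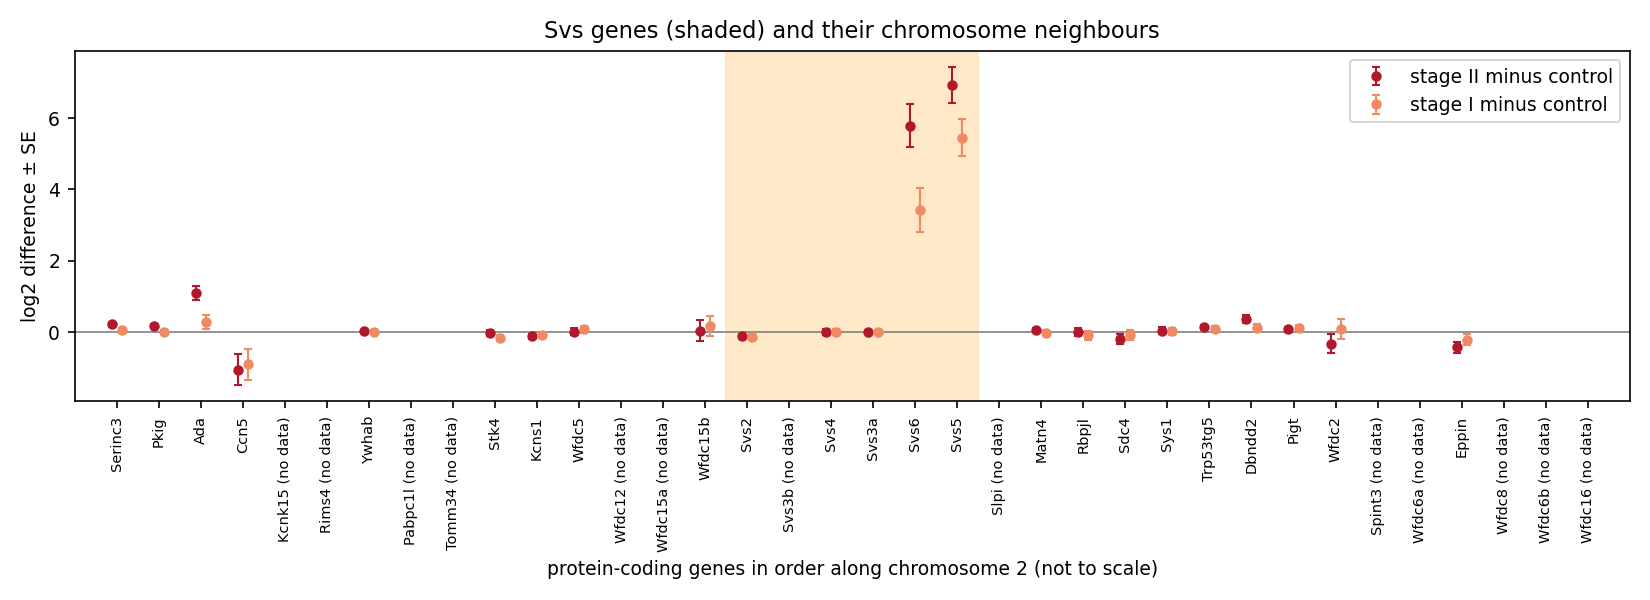
Log2 difference from controls (vertical axis, ± SE) of the Svs genes (shaded) and the 15 protein-coding genes on each side, in order along chromosome 2 and not to scale, for stage II and stage I. Svs6 and Svs5, the last 2 genes of the run, stand at 5.78 and 6.93 in stage II. The 18 measured neighbours lie between -1.06 and 1.09 in stage II, with a median of 0.03 against -0.01 over all genes.

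Other secretory genes of the male accessory glands mostly lay near their control levels. Of 30 such genes listed beside the members, 15 were measured, Svs3a and Wfdc15b among them. In stage II 2 of 15 rose and 0 fell (13.3%, where 21.0% of all genes passed), with a median log2 difference of 0.04 against -0.01 over all genes. In stage I 0 of 15 passed, where 0.192% of all genes did, and the median was 0.10 against 0.00 over all genes. At an unadjusted p under 0.05, 2 were higher and 0 lower in stage I, where 414 and 284 of all 10949 genes were. Pate4, also known as Svs7, had a log2 difference of 0.23 in stage II (adjusted p = 0.0555) and 0.19 in stage I (adjusted p = 0.715). It read 3.44 to 3.60 in stage II, 3.39 to 3.60 in stage I and 3.06 to 3.36 in controls. Both tumor stages thus lay above all controls by a narrow gap at a low level. Of all genes, 9.97% lay above all controls in stage II and 2.23% in stage I. Sva, a seminal vesicle autoantigen gene, had 0.07 and 0.10, and the trypsin inhibitor gene Spink1 had -0.08 in stage II and 0.00 in stage I.

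The genes of that list that rose in stage II were Klk1b24, a kallikrein-family protease gene, and Ceacam10, a seminal vesicle glycoprotein gene. Klk1b24 read 6.71, 6.74 and 4.60 in stage II, 4.65, 4.04 and 4.25 in stage I, and 3.63 to 4.05 (median 3.78) in controls, so stage II replicate 3 stood with stage I. Its log2 difference from controls was 2.18 ± 0.37 (SE, limma adjusted p = 0.00177) in stage II. In stage II against stage I it was 1.70 (adjusted p = 0.0253), and omitting any of stage I replicates 2 and 3 and stage II replicates 1 and 2 removed this call (highest adjusted p = 0.0882). Kallikrein genes are near-identical copies, so the probe set may read more than 1 of them. Ceacam10 read 5.40, 5.05 and 4.37 in stage II, 4.49, 4.77 and 4.40 in stage I, and 4.03 to 4.32 (median 4.16) in controls, with a log2 difference of 0.78 (adjusted p = 0.00797) in stage II. In both genes stage II replicate 3 was the lowest stage II ovary, whereas it was the highest of all ovaries in Svs5 and Svs6.

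**Figure D4:**
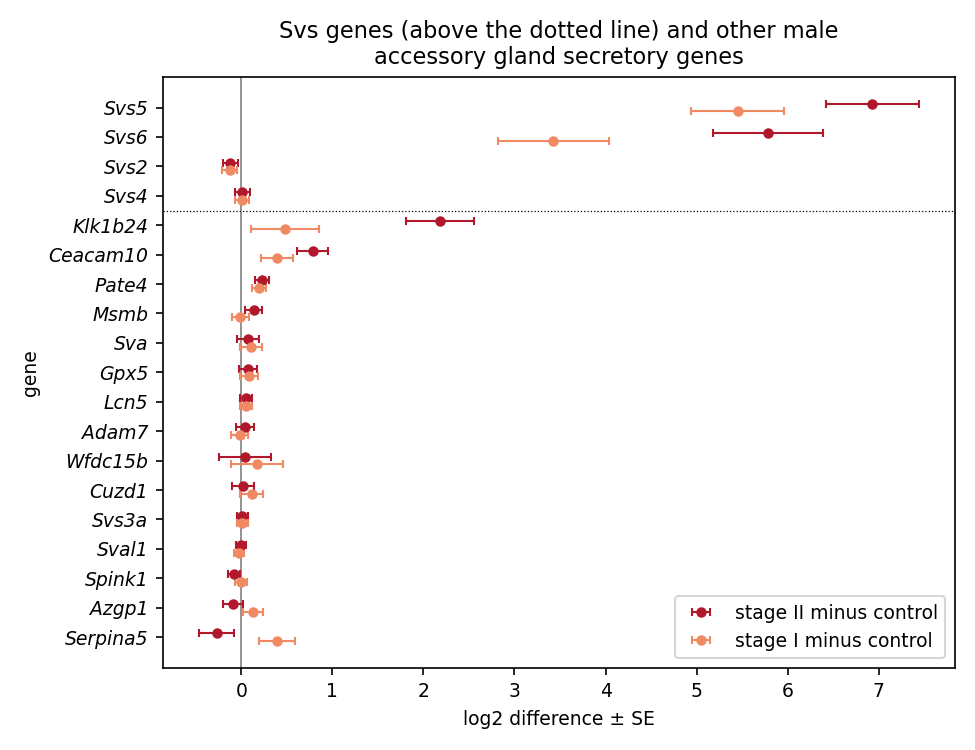
Log2 difference from controls (horizontal axis, ± SE) of the Svs genes, above the dotted line, and of 15 other secretory genes of the male accessory glands, for stage II and stage I. Svs5 and Svs6 lie at 5.78 or more in stage II, while the largest value in the list is 2.18, for Klk1b24.

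Transglutaminases, the enzymes that cross-link seminal vesicle proteins, were measured for 3 of 8 listed genes. Tgm2, the widely expressed tissue transglutaminase, rose in stage II (limma, adjusted p = 1.49e-05), the 1 of 3 that passed where 21.0% of all genes did. It read 10.92, 11.16 and 11.26 in stage II, 10.34, 10.08 and 9.93 in stage I, and 9.41 to 9.98 (median 9.68) in controls. It was also higher in stage II than in stage I (log2 0.99, adjusted p = 0.00225), and it was at 0.44 in stage I against control (adjusted p = 0.464). Tgm3 and Tgm5 had log2 differences of 0.16 and -0.09 in stage II. Tgm4, the prostate enzyme that forms the copulatory plug, was not analysed here.

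Of 24 listed inhibitors with whey acidic protein or Kunitz domains, several of which lie near the Svs run, 8 were measured and 0 passed by limma in stage II, where 21.0% of all genes did, or in stage I, where 0.192% did. At an unadjusted p under 0.05, 2 were lower and 0 higher in stage II, and 0 were lower or higher in stage I. Of all 10949 genes, 2095 were lower and 1582 higher at that threshold in stage II, and 284 and 414 in stage I. Eppin, a sperm surface protease inhibitor gene, had a log2 difference of -0.42 in stage II (adjusted p = 0.0618), and Wfdc18, another gene with a whey acidic protein domain, had 0.32 (adjusted p = 0.808).

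Of 17 listed steroid receptors and cofactors, 12 were measured. In stage II 3 of 12 rose, Pgr among them, and 1 fell, where 9.81% and 11.2% of all genes did. In stage I 1 of 12 rose, which was Pgr, where 0.192% did. Only the tumor groups carried the PgrBLsL allele, so the Pgr calls are not read as a result about the list. In stage II against stage I, where 12.5% of all genes passed, 2 of 12 rose, Pgr (adjusted p = 0.0116) and Fkbp5 (0.0141), and 1 fell, Fkbp4 (0.00630). The Pgr call was lost without stage II replicate 3 (0.0506). Pgr, the gene the allele is named for, read 9.78, 9.96 and 10.09 in stage II, 9.11, 9.05 and 9.28 in stage I, and 3.74 to 4.60 (median 4.19) in controls. Unlike Svs5 and Svs6, Pgr was nearly level among the stage I ovaries, with replicate 1 between the other 2. Fkbp5, a co-chaperone that steroid hormones are known to induce, had a log2 difference of 0.40 in stage II (adjusted p = 0.0142). Fkbp5 missed the threshold when stage II replicate 1 or replicate 3 was omitted (highest 0.0634). Fkbp4, its relative that aids receptor activity, fell by 0.54 on the log2 scale in stage II (adjusted p = 0.0111), and missed it when stage II replicate 3 was omitted (0.0754). Foxa1, a pioneer transcription factor, was at 0.23 (adjusted p = 0.0457). With 1 array omitted at a time it passed in 3 of 12 cases, those of controls 1 and 4 and of stage II replicate 1 (highest 0.232 otherwise). The estrogen receptor gene Esr1 and the glucocorticoid receptor gene Nr3c1 had -0.27 (adjusted p = 0.311) and -0.03 (adjusted p = 0.824) in stage II.

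Among 10402 genes, predicted genes, clone symbols and the members left out, 46 had r above 0.9 with Svs5 over the 12 arrays. The 8 most like it were Tspan8, an epithelial tetraspanin (r = 0.989), Lcn2, an innate defence protein (0.985), Fabp3, a fatty acid binding protein (0.981), and Fga, the fibrinogen alpha chain (0.981). After them came Pmaip1, the pro-apoptotic Noxa gene (0.978), Ptn, the growth factor pleiotrophin (0.974), Defb8, a beta-defensin (0.969), and Amy1, salivary amylase (0.967). Pgr had r = 0.964. These values describe mainly the step between tumor and control ovaries, and they come from arrays that all these genes share.

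Within groups the picture differed from gene to gene. Of 1869 genes whose deviations from group means had an SD of at least 0.2, 8 had r above 0.9 with the deviations of Svs5. The closest were Snx10, a sorting nexin (r = 0.935), Ttpa, the alpha-tocopherol transfer protein (0.933), Tspan8 (0.918), Pla1a, a secreted phospholipase (0.918), Net1, an exchange factor for RhoA (0.909), and Cyp27a1, the sterol 27-hydroxylase (0.906). Tspan8 was the 1 gene in both groups of most like genes. Lcn2 had 0.679 by this measure and Pgr had -0.381. In each of the 13 genes so found stage I replicate 1 was the highest of the 3 stage I ovaries, which the choice of genes by their likeness to Svs5 largely fixes, so nothing is read from it.

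**Figure D5:**
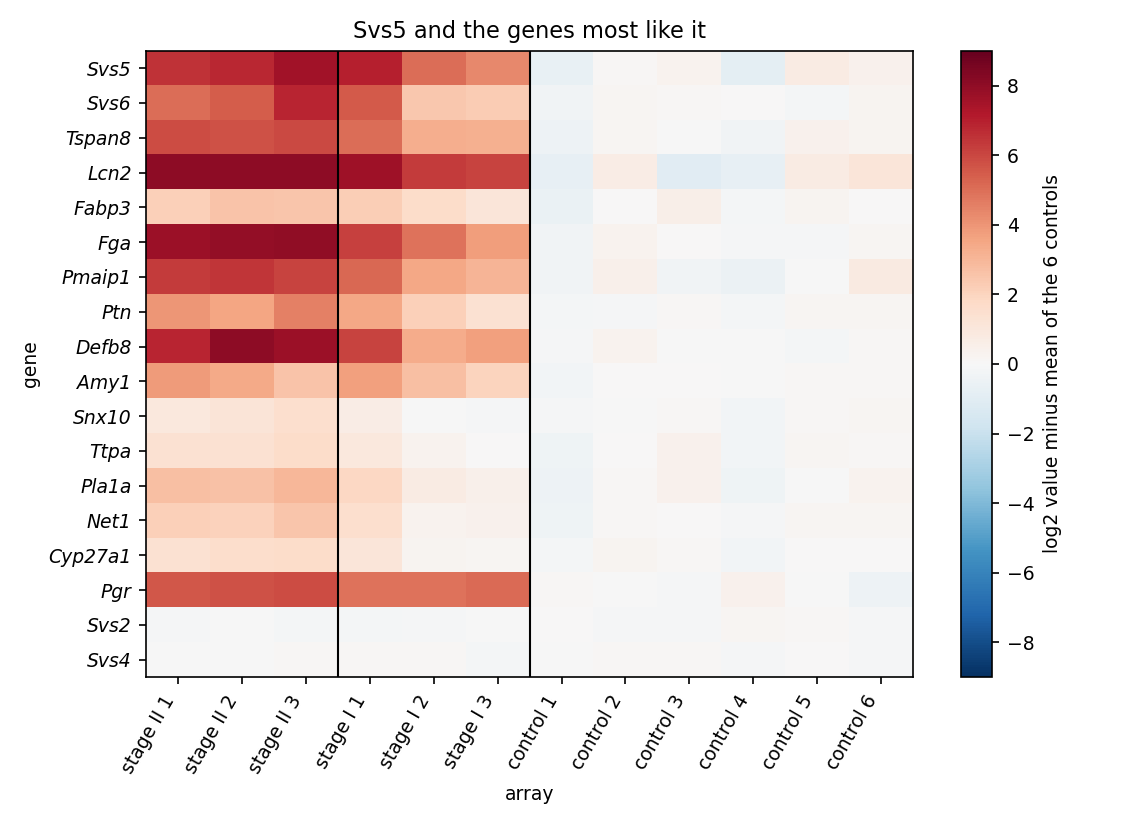
Log2 value minus the mean of the 6 controls (colour) of Svs5, Svs6, the 13 genes most like Svs5, Pgr, Svs2 and Svs4 (rows) on the 12 arrays (columns). Stage I replicate 1 stands above stage I replicates 2 and 3 in the 13 genes like Svs5, which their choice by likeness to Svs5 largely fixes. Pgr, which was not chosen that way, is nearly the same in all 3 stage I ovaries (4.91, 4.86 and 5.08).

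Markers of other cells were set beside these levels as the log2 of the summed signal of each list. Markers of the seminal vesicle epithelium other than the members, 6 of 11 measured, spanned 6.91 to 7.15 in stage II, 6.85 to 7.35 in stage I and 6.68 to 7.12 in controls, so the groups overlapped. Oviduct epithelium, 8 of 10 measured, spanned 10.45 to 12.15 in stage II, 10.50 to 12.33 in stage I and 10.26 to 13.03 in controls, and control replicate 5, highest in Svs5 among controls, held the 13.03. Surface epithelium, with 2 of 8 measured, Krt8 and Krt19, spanned 12.20 to 13.54 in stage II, 9.90 to 10.82 in stage I and 8.82 to 10.10 in controls. Stage I replicate 1 was the highest stage I ovary in it and stage II replicate 3 the highest of all. Macrophage markers, 5 of 9 measured, spanned 12.21 to 12.51 in stage II, 11.76 to 12.46 in stage I and 11.53 to 11.81 in controls. Stage I replicate 1 and stage II replicate 3 held the same places in the macrophage list (12.46 and 12.51). They also did in the Sertoli cell list (8.19 and 9.51), with 5 of 6 measured, but not in the other marker lists. Over all genes 9.81% rose and 11.2% fell in stage II and 0.192% passed in stage I. At an unadjusted p under 0.05, 1582 of all 10949 genes were higher and 2095 lower in stage II, and 414 and 284 in stage I. In stage II 1 of 2 surface epithelium markers and 4 of 5 macrophage markers rose. In stage I 0 of either passed, with 1 and 4 higher at an unadjusted p under 0.05. Granulosa markers fell in 4 of 4 and theca markers in 4 of 4 in stage II. In that stage 1 of 4 luteal markers, 1 of 7 uterine markers and 1 of 6 seminal vesicle markers rose, and 0 of 8 oviduct markers passed, with 1 higher and 1 lower unadjusted. Of 5 Sertoli cell markers 1 rose and 1 fell in stage II, as did 1 and 1 of 3 adipocyte markers. The part of these cell types in the Svs levels was not tested. In whole ovaries a larger number of cells of a type and more RNA per cell cannot be told apart.

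The labelled tissue bore ovarian markers on all arrays, with granulosa cell Inha averaging 12.73 in stage II, 13.56 in stage I and 13.44 in controls. Array medians lay between 7.09 and 7.15, and correlations between arrays over all probe sets between 0.967 and 0.997. Control replicates 1 and 4, which held the highest luteal marker levels (14.44 and 14.74), were the lowest 2 controls in 2 of the 3 Svs5 probe sets, and replicates 4 and 2 were in 1419346_a_at. Without them the log2 difference of Svs5 was 6.55 in stage II and 5.07 in stage I, and that of Svs6 was 5.70 and 3.35. With the 3 arrays richest in Ovgp1, the oviduct glycoprotein gene, left out, the differences were 7.15 and 5.81 for Svs5, and 5.91 and 3.89 for Svs6.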

How the data were processed

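Biotin-labelled ovary RNA was measured on 1-colour arrays, 1 array per sample. The values are log2 values per probe set as deposited by the authors; how they were summarised and normalized is not stated in the labels. The log2 scale was settled from the range of 2.69 to 14.4. The arrays lay near 1 distribution, so changes in total RNA per cell cannot be seen, and the number of arrays limits the precision. The table holds 16376 probe sets, of which 14674 carry 1 platform symbol, 427 carry more than 1 and 1275 carry none. Of those with 1 symbol, 14632 matched the RefSeq gene table of GRCm38.p6 by Entrez identifier, which changed 0 symbols. The probe set with the highest mean stood for a gene, which left 10949 genes. All 4 members had a promoter sequence.

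With limma 3.58.1 in R 4.3.3 (lmFit and eBayes), 1 model with a mean per group gave the 3 comparisons, each tumor stage against control and the later stage against the earlier, with 9 residual degrees of freedom and Benjamini-Hochberg adjustment over all genes at a threshold of 0.05. The SE of each member probe set comes from the same model fitted on every probe set. The step was tested on simulated data. Group values are means ± SD, and p-values measure the spread between these arrays only.

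The members, the 4 gene lists, the 10 marker lists and the neighbour rule were chosen with earlier results of these data known. The rule for named genes took all member probe sets, the neighbours and list members past the threshold, the nearest measured neighbours, and the 8 and 6 genes most like Svs5. The text names part of them. Seminal vesicle genes without a call were named after their values were seen, as were Inha, Tgm3, Tgm5, Esr1 and Nr3c1.

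The alternatives were quantile normalization, centred medians, a filter on the dimmest 25 percent, mean or all probe sets, array weights, a robust trended prior, a fit of the compared groups only, the replicate number as a block, and single arrays left out. Leaving out control replicates 1 and 4, or the 3 arrays richest in Ovgp1, was added after seeing the data.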

Additional observations from a re-analysis of the deposited data

How the results depend on the processing

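The Svs5 and Svs6 differences from controls kept their sign under all alternatives. The choice of the genes and the gap between tumor and control arrays largely fix this, so nothing is read from it. Single arrays left out gave log2 values for Svs5 of 6.63 to 7.15 in stage II, 4.68 to 6.00 in stage I and 0.93 to 2.25 between the stages. For Svs6 they gave 5.23 to 6.17, 2.37 to 3.99 and 1.79 to 3.41. Svs2 and Svs4 gave no value without the dimmest 25 percent of genes, because they are among those genes. With the replicate number as a block, Svs5 stood at 7.01 and 5.53 and Svs6 at 5.81 and 3.46 over controls. The labels do not say that replicate numbers pair ovaries, and 3 of 9 same-numbered pairs of arrays had deviations correlated above 0.1.

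The count of genes called in stage II against control, 2302, was 1090 with the replicate block and 1145 to 2432 with single arrays left out. In stage I against control, 21 became 32 with every probe set, 6 with the replicate block, 13 without control replicates 1 and 4, 11 without the 3 arrays richest in Ovgp1, and 15 to 28 with single arrays left out. In stage II against stage I, 1370 became 2308 with array weights, 393 with the compared groups alone, 602 with the replicate block, 544 without the 3 high-Ovgp1 arrays, and 605 to 1610 with single arrays left out.

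Of the neighbours, 4 calls became 2 with quantile normalization, 1 with the replicate block, 2 without the high-Ovgp1 arrays, and 1 to 5 with single arrays left out. The 2 calls of the male secretory list in stage II became 1 with the replicate block, where Ceacam10 did not pass, and 0 without the dimmest genes, which removes both. Between the stages its 1 call became 2 with array weights and 0 with the compared groups alone, the replicate block, the dim filter or without the high-Ovgp1 arrays, and 0 to 2 with single arrays left out. The 4 calls of the steroid receptor list in stage II became 1 with the replicate block and 1 to 4 with single arrays left out, and its 3 between the stages became 1 without the high-Ovgp1 arrays. The 0 calls of the inhibitor list in stage II became 2 with centred medians, array weights or without control replicates 1 and 4, 1 with quantile normalization, the compared groups alone or the dim filter, and 0 to 1 with single arrays left out. The cause of these changes was not tested.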

Other observations

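Wfdc15b, the neighbour of Svs2, is also known from male accessory glands. It read 5.43 in stage II replicate 2, 6.14 in stage I replicate 2 and 5.82 in control replicate 5, against 4.80 to 5.11 on the other 9 arrays. The same 3 arrays held the highest values of Ovgp1, the oviduct glycoprotein gene, at 11.6, 11.8 and 12.7. Wfdc15b was singled out after its values were seen, and this likeness was not tested.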
